A study of Mus musculus with 9 samples.

Results

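The 10 genes described here are Dcx, Sox11, Neurod1, Eomes, Calb2, Igfbpl1, Tubb3, Nes, Sox2 and Draxin, which mark successive stages of neuron production in the dentate gyrus. They were chosen by gene symbol from the 54532 genes of the deposited table, and each symbol matched 1 gene. The samples were hippocampi of 9 N4 Ube3am-/p+ mice, a model of Angelman syndrome (AS) in which the maternal copy of Ube3a is lost and the paternal copy is kept. The mutant allele had been backcrossed for several generations to an inbred strain on which such mice have audiogenic seizures. At postnatal day 21 (P21), 5 mice received an intracerebroventricular injection of 0.5 nmol Ant-134, a locked nucleic acid oligonucleotide complementary to the microRNA miR-134, and 4 mice received 0.5 nmol of a scrambled oligonucleotide (Scr). All mice of both groups carried the Ube3a mutation and underwent 3 audiogenic seizure tests, at P22, P24 and P26, and the tissue was taken at P27. Neither wild-type mice nor mice without seizure tests are among these samples, so values given here compare Ant-134 with Scr within seizure-tested mutants. In the study, audiogenic seizures were less severe in Ant-134 mice, and survival tended to be better. Effects of the oligonucleotide and of milder seizures therefore cannot be told apart here.

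In the dentate gyrus, radial glia-like stem cells that contain Sox2 and nestin give rise to dividing intermediate progenitors, which switch on Eomes (Tbr2) and then Neurod1. Their daughters become neuroblasts and immature granule neurons, which contain doublecortin, the microtubule-binding product of Dcx, and pass through a calretinin (Calb2) stage before they mature. The process is most active in young animals and is known to respond to seizures. The list is not specific to this lineage, because Sox2 is also made by astrocytes, Nes by blood vessel cells, Tubb3 by mature neurons and Calb2 by mossy cells and interneurons.

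Dcx is a known target of miR-134, so matches to the miR-134 seed were looked for in the 3′ untranslated region (UTR) of each gene. A microRNA pairs with its targets mainly through its seed, bases 2 to 8, printed in capitals in the mature mouse sequence from RefSeq (GRCm38.p6, chr12:109734145-109734166, plus strand), which is shown because both sites below pair with it:
mmu-miR-134-5p: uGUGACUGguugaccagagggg
The searched letters were CAGTCAC and AGTCACA on the transcript strand, which overlap in the 8-base site CAGTCACA. Of the 10 genes, 2 held a match in their longest annotated 3′ UTR, Dcx and Draxin, and in both genes it was 1 match of 8 bases. The Dcx match starts at base 5604 of a 3′ UTR of 7709 bases (GRCm38, chrX:143857929-143857958 for the printed stretch, minus strand), and the Draxin match starts at base 3396 of 4033 (GRCm38, chr4:148099056-148099085, minus strand). The capitals mark the 8-base match in each:
Dcx 3′ UTR: ctacccctgttCAGTCACAagtaggttggt
Draxin 3′ UTR: ctactgaagcaCAGTCACAagggtgtcccc
Among the 15267 genes tested that have an annotated 3′ UTR, 19.5% held a match of either kind and 4.45% held the 8-base match. The 3′ UTR of Dcx is long, and of the 271 genes whose 3′ UTR length lies within 20% of it, 64.6% held a match. Over the 25627 bases of 3′ UTR of the 10 genes there were 0.0780 matches per kb, compared with 0.149 per kb over all these genes. The 3′ UTR of Sox11 is almost as long as that of Dcx, at 6957 bases, and held none of these letters.

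**Figure D1:**
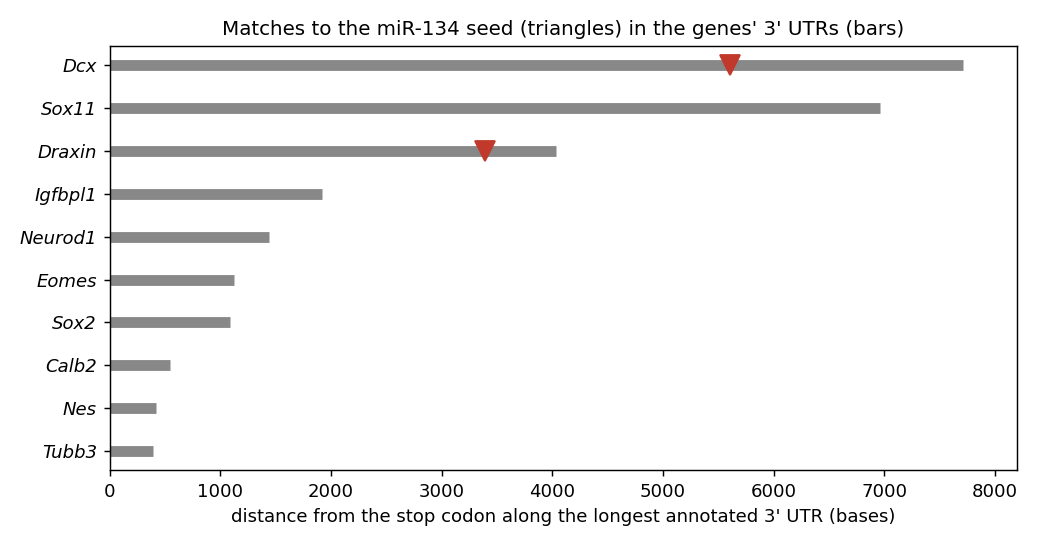
Matches to the miR-134 seed (triangles) along the longest annotated 3′ UTR of each gene (bars), with the distance from the stop codon in bases on the horizontal axis. Dcx and Draxin carry 1 match each, at base 5604 and base 3396, and the other 8 genes carry none.

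Between 28583298 and 41978113 reads per library were counted on genes, and the groups overlapped in depth, with medians of 30897530 for Ant-134 and 33912200 for Scr. Ube3a lay between 85.6 and 100.4 CPM (counts scaled to library totals adjusted by TMM) in all 9 libraries. Xist was between 540.8 and 687.0 CPM in Ant-134 replicates 1 and 4 and Scr replicate 3 and at most 1.84 CPM in the other 6, with Y-linked genes the other way round, so both groups contain both sexes, which the labels do not give. The summed level of 7 choroid plexus genes ranged from 172.8 to 3351 CPM in Ant-134 and from 198.0 to 2476 CPM in Scr. Over the 9 mice, the r of the mean log2 level of these genes with each of the 10 neurogenesis genes lay between -0.45 for Tubb3 and 0.074 for Nes (smallest adjusted exact permutation p = 0.640). Of 15 mature granule cell markers, 15 were detected and 15 passed the filter on low counts. All 8 thalamus and habenula genes passed it too, so passing does not show how much dentate gyrus the libraries hold. Of the 19782 genes tested in edgeR's quasi-likelihood test, 827 (4.18%) had an unadjusted p value below 0.05, the threshold of the study. Of all tested genes, 1.49% were called higher and 2.69% lower in Ant-134 at that threshold, and 0 genes (0%) passed after Benjamini-Hochberg adjustment. Without the filter on low counts, 14 passed in edgeR and 16 in DESeq2, and 17 passed in edgeR without Ant-134 replicate 1.

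No difference between Ant-134 and Scr passed edgeR's test in any of the 10 genes. Run without a filter, DESeq2, the tool of the study, called 1, Nes (unadjusted p value below 0.05), beside 2.74% of all genes. All 10 passed the filter, 0 were below the unadjusted threshold in edgeR, against the 4.18% of all genes, and 0 had groups that did not overlap in CPM, against 1.54% of all genes. In edgeR, 5 had a log2 fold change above 0 and 5 below it, with a median of -0.0030 compared with 0.0026 over all genes tested. The median size of the change was 0.070 on the log2 scale, close to the 0.068 of all genes tested. The adjusted p values in edgeR lay between 0.998 and 1.00. In whole-tissue RNA, fewer cells of a type and less RNA per cell cannot be told apart, and this holds for every value below.

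**Figure D2:**
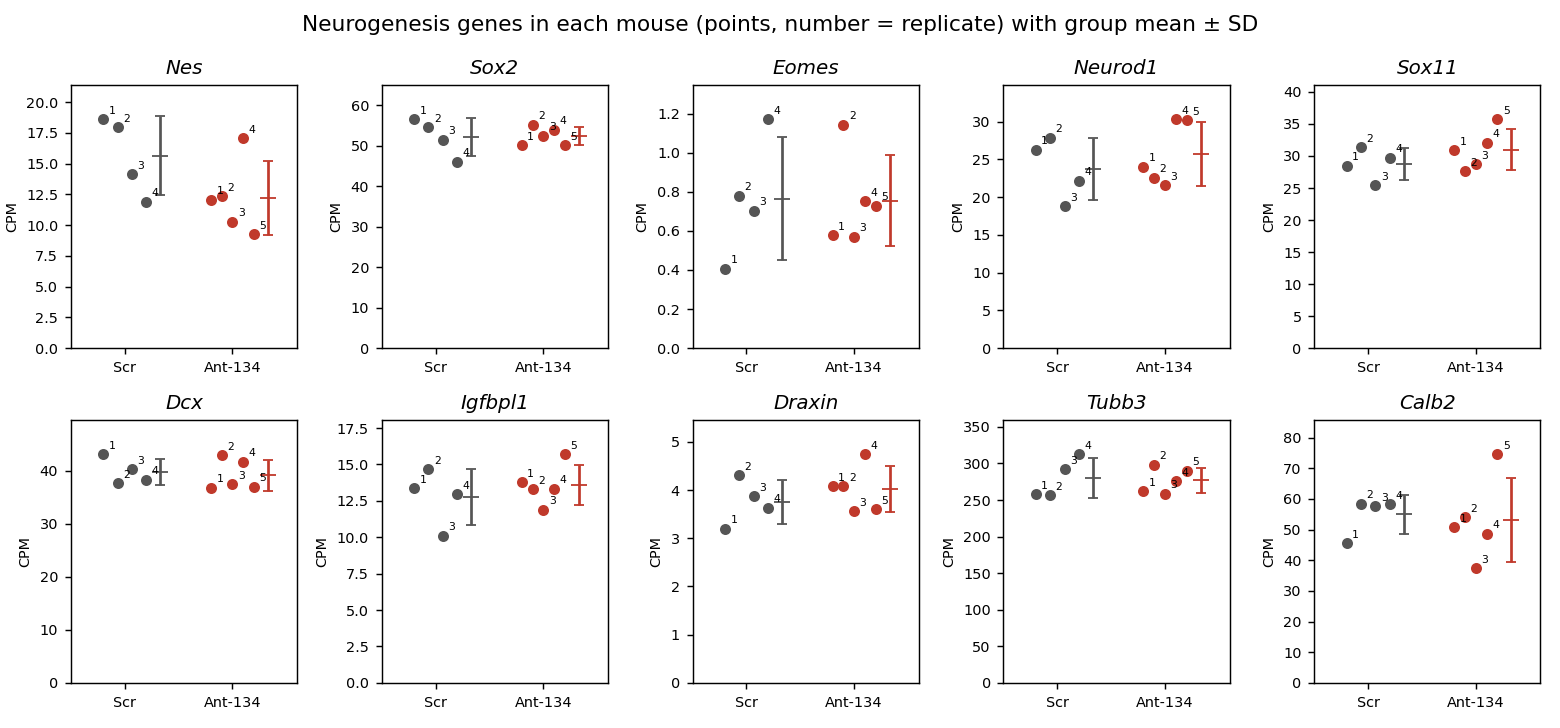
CPM of each of the 10 genes in every mouse, with 1 panel per gene, Scr in grey and Ant-134 in red, the replicate number beside each point and the group mean ± SD at its right. The vertical axes start at 0. The groups overlap in all 10 panels, and Nes shows the lowest Ant-134 mean relative to Scr, 12.2 against 15.7 CPM.

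Per length of transcript, the genes spanned a wide range of levels. In FPKM, which is scaled to the gene's length and the library total, Tubb3, a neuronal β-tubulin, was the highest at 147.5 ± 11.1 (SD, n = 9), and Eomes was the lowest at 0.181 ± 0.0604. Between them, in falling order, lay Calb2 at 30.6 ± 5.93, Sox2 at 25.2 ± 1.54, Neurod1 at 9.03 ± 1.47, Igfbpl1 at 4.03 ± 0.487, Sox11 at 3.58 ± 0.356, Dcx at 3.09 ± 0.201, Nes at 2.12 ± 0.524 and Draxin at 0.742 ± 0.0871 FPKM. The ranges over mice overlapped for 3 neighbouring pairs, and in 2 of these, Calb2 with Sox2 and Sox11 with Dcx, the first gene was the higher in 7 of 9 mice. For the third pair, Igfbpl1 was above Sox11 in 9 of 9 mice.

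Nes encodes nestin, an intermediate filament protein of stem cells and of some vascular cells. Its level in the Ant-134 mice, in order of replicate number, was 12.1, 12.4, 10.3, 17.1 and 9.27 CPM, and in the Scr mice it was 18.6, 18.0, 14.1 and 11.9 CPM. Ant-134 replicate 4 was the only treated mouse above Scr replicate 3, and Scr replicate 4 lay among the treated mice, so the groups overlapped. The means were 12.2 ± 3.00 (SD, n = 5) and 15.7 ± 3.19 (SD, n = 4), a log2 fold change of -0.36 ± 0.19 (SE). Nes had the smallest p value of the 10 genes, but it did not pass the threshold in edgeR (unadjusted p = 0.0848, adjusted p = 0.998) or in the exact permutation test (two-sided p = 0.119, where the smallest p that these group sizes allow is 0.00794). It passed the unadjusted threshold in DESeq2 without a filter, at a log2 fold change of -0.36, where 2.74% of all genes passed, and did not pass in edgeR without a filter, where 4.74% did. It also passed that threshold in edgeR without Ant-134 replicate 4, at -0.51 (4.9% of all genes passed), and without Scr replicate 4, at -0.47 (4.84% of all genes). Leaving out any of the other 7 mice did not bring it past the threshold, and its smallest value was -0.27, without Scr replicate 1. All 8 endothelial and mural cell markers had log2 fold changes below 0, with a median of -0.13 compared with 0.0026 over all tested genes, and 0 of 8 were called, beside 4.18% of all tested genes in either direction and 2.69% lower. The summed level of these 8 markers was 186.5 to 238.3 CPM in Ant-134 and 186.4 to 285.0 CPM in Scr, and none of them was at 0 in all libraries. The correlation of Nes with the mean of these markers over the 9 mice is given with the other lists.

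Sox2 encodes a transcription factor that maintains stem cells. It measured 50.2, 55.2, 52.5, 53.9 and 50.1 CPM in the Ant-134 mice and 56.5, 54.5, 51.4 and 46.0 CPM in the Scr mice. Both the highest and the lowest value belonged to Scr mice, and the Ant-134 mice fell between them. On the log2 scale Ant-134 exceeded Scr by 0.0066 ± 0.060 (SE; exact permutation p = 0.897), and its 95% interval of 0.920-fold to 1.10-fold was among the narrowest of the 10. Sox2 lies inside the span of Sox2ot, a non-coding gene on the same strand with 900 to 1470 counts per library. Whether their exons overlap was not examined.

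Eomes encodes the transcription factor Tbr2 of intermediate progenitors and was the least abundant of the 10, at 13 to 44 counts per library. Its level was 0.579, 1.14, 0.569, 0.753 and 0.728 CPM in the Ant-134 mice and 0.407, 0.780, 0.704 and 1.17 CPM in the Scr mice. It varied 2.88-fold from the lowest to the highest mouse, and both of these were Scr mice. Its log2 fold change was -0.013 ± 0.31 (SE), so that at this depth the 95% interval of 0.623-fold to 1.58-fold leaves room for sizeable changes in either direction.

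Neurod1 encodes a transcription factor that starts neuronal differentiation and stays on in young granule neurons. It measured 24.0, 22.6, 21.6, 30.3 and 30.2 CPM in the Ant-134 mice and 26.3, 27.9, 18.8 and 22.2 CPM in the Scr mice. The highest values were in Ant-134 replicates 4 and 5, and the other 3 Ant-134 mice lay within the range of Scr. The change of Neurod1 was 0.11 ± 0.14 on the log2 scale (SE; exact permutation p = 0.50). The span of Neurod1 overlaps that of Cerkl on the same strand, which had only 15 to 55 counts per library, and their exons were not compared.

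Sox11, a transcription factor of newborn neurons that is known to act on the Dcx promoter, measured 30.9, 27.6, 28.7, 32.1 and 35.7 CPM in the Ant-134 mice. In the Scr mice it was 28.5, 31.4, 25.5 and 29.8 CPM, and 2 of 5 Ant-134 mice were above the highest of these. Sox11 differed by 0.11 ± 0.079 on the log2 scale (SE), with a 95% interval of 0.957-fold to 1.21-fold (exact permutation p = 0.310).

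Dcx, on the X chromosome, had 1054 to 1650 counts per library, which gives a counting error of at most 3.08%. Its level was 36.8, 42.9, 37.5, 41.7 and 37.0 CPM in the Ant-134 mice and 43.2, 37.7, 40.2 and 38.3 CPM in the Scr mice. The highest mouse was Scr replicate 1, the next was Ant-134 replicate 2, and 3 Ant-134 mice were below all Scr mice by less than 1 CPM. The means of 39.2 ± 2.89 (SD, n = 5) and 39.8 ± 2.46 (SD, n = 4) differed by less than the spread within either group. As a log2 fold change this was -0.024 ± 0.063 (SE; edgeR unadjusted p = 0.709, adjusted p = 0.998; exact permutation p = 0.683). The 95% interval ran from 0.896-fold to 1.08-fold, so an increase above 1.08-fold or a decrease below 0.896-fold lies outside it. Over the 9 mice the coefficient of variation of Dcx was 6.50%, the second lowest of the 10 after the 6.17% of Sox2, compared with 33.4% for Eomes.

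Draxin encodes a secreted axon guidance protein of the young dentate gyrus and is the other gene with an 8-base miR-134 match. It measured 4.08, 4.08, 3.56, 4.75 and 3.61 CPM in the Ant-134 mice and 3.20, 4.30, 3.87 and 3.63 CPM in the Scr mice. The highest value was an Ant-134 mouse and the lowest a Scr mouse, with the rest mixed. Its log2 fold change was 0.097 ± 0.14 (SE; exact permutation p = 0.444), so the difference was within the spread for both genes with a match. Draxin overlaps Mad2l2 on the opposite strand, at 303 to 467 counts per library, and whether the counting used strand is not given in the sources used here.

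Igfbpl1, an insulin-like growth factor binding protein relative found in young granule neurons, measured 13.8, 13.3, 11.9, 13.3 and 15.7 CPM in the Ant-134 mice and 13.4, 14.7, 10.1 and 12.9 CPM in the Scr mice. Igfbpl1 differed by 0.089 ± 0.11 on the log2 scale (SE), and the lowest mouse was Scr replicate 3. Tubb3 measured 262, 298, 259, 276 and 290 CPM in the Ant-134 mice and 258, 257, 292 and 313 CPM in the Scr mice. Its groups were interleaved, with a log2 fold change of -0.015 and a standard error of 0.064. Calb2, which encodes the calcium-binding protein calretinin, measured 50.8, 54.0, 37.4, 48.6 and 74.6 CPM in the Ant-134 mice and 45.5, 58.4, 57.6 and 58.3 CPM in the Scr mice. Ant-134 replicates 3 and 5 were the lowest and the highest of all 9 mice, 1.99-fold apart, and the log2 fold change of -0.050 had a standard error of 0.19.

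**Figure D3:**
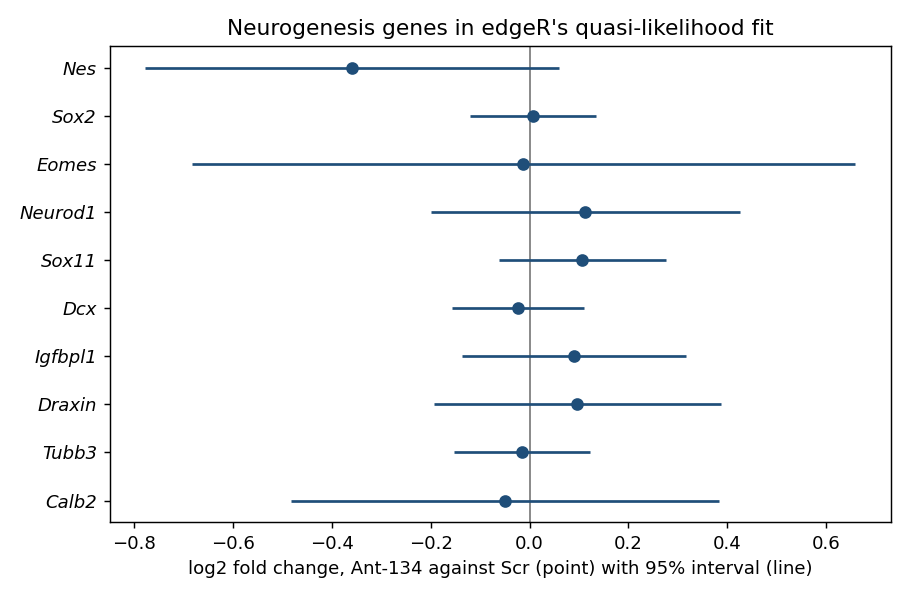
Log2 fold change of Ant-134 against Scr (point) and its 95% interval (line) for each of the 10 genes from edgeR. All 10 intervals include 0, those of Sox2, Dcx and Tubb3 are the narrowest, and that of Eomes, from -0.68 to 0.66, is the widest.

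Lists of genes for each stage, which hold the 10 genes too, were compared in the same way. Because they hold genes such as Sox2, Nes, Tubb3 and Calb2, the lists are not specific to this lineage either. They were written with earlier results of the data known and are described by their counts in edgeR at the unadjusted p value below 0.05. Of 15 stem and radial glia-like cell genes, 0 were called higher and 1 lower, beside 1.49% and 2.69% of all tested genes. Of the 15, 11 had a log2 fold change below 0, and the median was -0.056. The 1 called gene was Notch1, a receptor that maintains neural stem cells, at 29.3 ± 2.36 CPM in Ant-134 (SD, n = 5) and 33.9 ± 2.92 in Scr (SD, n = 4). Its highest Ant-134 mouse, at 30.9 CPM, was below its lowest Scr mouse, at 31.2 CPM. Groups did not overlap, in either direction, in 1.54% of all tested genes. For Notch1 the log2 fold change was -0.21 ± 0.072 (SE; edgeR unadjusted p = 0.0102, adjusted p = 0.998; exact permutation p = 0.00794, the smallest possible). Gfap was the most abundant gene of that list and had a log2 fold change of 0.020 ± 0.12. (SE)

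None of 15 genes of dividing cells was called in either direction, with a median log2 fold change of -0.0005, and Ccnd2, a cyclin and the most abundant of them, was at 101.1 ± 7.60 CPM in Ant-134 and 99.3 ± 4.74 CPM in Scr. None of 8 intermediate progenitor genes was called (median 0.022), and the most abundant, Rgcc, a regulator of the cell cycle, had a log2 fold change of 0.060 ± 0.10. (SE) None of 25 genes of neuroblasts and immature granule neurons was called in edgeR (median 0.024). The most abundant of these, the growth cone gene Basp1, was at 747 ± 15.2 CPM in Ant-134 and 736 ± 6.82 CPM in Scr. Bhlhe22 of this list had a log2 fold change of 0.17 ± 0.078 (SE; edgeR unadjusted p = 0.0543, adjusted p = 0.998). The study lists Bhlhe22 as upregulated by its own DESeq2 analysis. Over the 63 genes of these 4 lists, 1 was called in edgeR (1.59%), and without the 10 genes it was 1 of 53 (1.89%), beside 4.18% of all tested genes.

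Among the 15 mature granule cell genes, 1 was called higher and 1 lower, beside 1.49% and 2.69% of all tested genes, with a median of 0.063. Dsp, which encodes the junction protein desmoplakin, was at 47.2 ± 4.49 CPM in Ant-134 and 41.7 ± 2.87 CPM in Scr, and Npnt, which encodes the matrix protein nephronectin, was at 36.1 ± 2.29 and 40.1 ± 3.05 CPM. Calb1, the most abundant, had a log2 fold change of 0.19 ± 0.15. (SE) In the lists for other cells that the tissue holds, 1 gene was called, beside 4.18% of all tested genes, Lef1 of the 8 thalamus and habenula genes, with a log2 fold change of 0.44 and a standard error of 0.19. None was called among 8 astrocyte genes, 7 of oligodendrocyte precursors, 8 of interneurons, 5 of mossy cells, 7 of ventricular zone neuroblasts, 7 of choroid plexus, 8 of pyramidal cells and the 4 of 6 Cajal-Retzius cell genes that were tested.

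The variation between mice was compared gene by gene. None of the 9 relations of Dcx with the other genes over the 9 mice passed after adjustment, which does not show that they are unrelated. The largest r was with Sox2, with a Pearson r of 0.62 (exact permutation p = 0.0721, adjusted p = 0.525) and a Spearman rho of 0.68 (exact permutation p = 0.0503, adjusted p = 0.265). Without Ant-134 replicate 2 and Scr replicate 1, the mice farthest from the median of Dcx, r fell to 0.29. Nes followed with an r of 0.56 (exact permutation p = 0.117, adjusted p = 0.525). With Sox11 the r was -0.48 (exact permutation p = 0.195, adjusted p = 0.586), and with Neurod1 it was -0.035 (exact permutation p = 0.928, adjusted p = 0.994).

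The 3 pairs formed by Sox11, Neurod1 and Igfbpl1 had the highest Pearson r of the 45 pairs of the 10 genes. The r was 0.84 for Neurod1 with Igfbpl1 (exact permutation p = 0.00278, adjusted p = 0.0719), 0.86 for Sox11 with Neurod1 (exact permutation p = 0.00319, adjusted p = 0.0719) and 0.86 for Sox11 with Igfbpl1 (exact permutation p = 0.00525, adjusted p = 0.0787). Their rho values were 0.82, 0.80 and 0.73 in the same order (adjusted exact permutation p = 0.311, 0.311 and 0.350). Nes with Sox2 had a rho of 0.75 (adjusted exact permutation p = 0.350), above that of Sox11 with Igfbpl1. None of the 45 pairs passed after adjustment. For these 3 pairs r was between 0.70 and 0.88 within the 5 Ant-134 mice and between 0.82 and 0.96 within the 4 Scr mice, given as a description with no test. The relation of Sox11 with Igfbpl1 rested in part on Ant-134 replicate 5 and Scr replicate 3, without which the r was 0.49. The r values of the other pairs without the 2 farthest mice were 0.91 for Neurod1 with Igfbpl1 and 0.69 for Sox11 with Neurod1.

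The levels of the same 3 genes were also set against markers of mature dentate cells. Each list was summarised as the mean of its log2 levels in a mouse, and the 10 genes and 15 lists gave 150 relations, a family added after the data were examined. With the 15 mature granule cell genes, the r was 0.87 for Sox11, 0.85 for Neurod1 and 0.90 for Igfbpl1 (adjusted exact permutation p = 0.0824, 0.0824 and 0.0685), and the rho was 0.83, 0.77 and 0.78 (adjusted exact permutation p = 0.177, 0.247 and 0.247). Scr replicate 3 had the lowest level of this list and of all 3 genes, and the highest levels of the list were in Scr replicate 2 and Ant-134 replicate 5. None of these relations passed adjustment. Without Scr replicates 2 and 3, the r values were 0.91, 0.78 and 0.78. For Dcx this list gave an r of -0.40 (adjusted exact permutation p = 0.702) and a rho of -0.47 (adjusted exact permutation p = 0.678). The largest list relation of Dcx was with the 15 stem and radial glia-like cell genes, at an r of 0.63 (adjusted exact permutation p = 0.468) and a rho of 0.67 (adjusted exact permutation p = 0.520), and the r was 0.95 without Scr replicates 1 and 2. With the other 24 genes of neuroblasts and immature granule neurons the r of Dcx was -0.13 (adjusted exact permutation p = 0.936) and its rho was -0.033 (adjusted exact permutation p = 0.981). As the stage lists are not specific, these r values describe the listed genes and not a cell type.

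**Figure D4:**
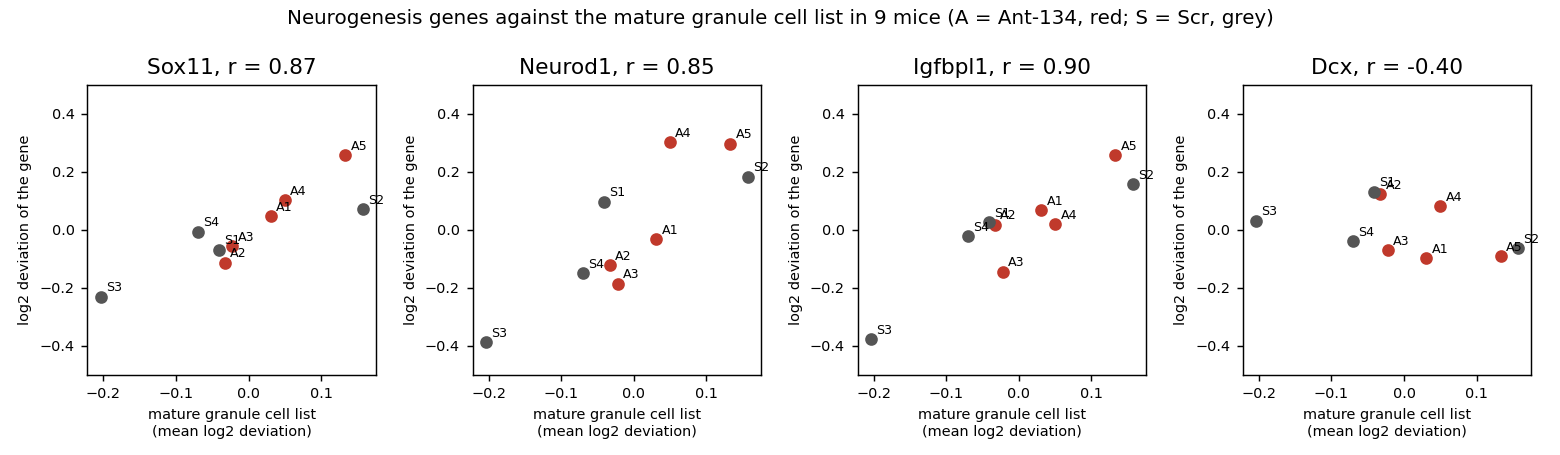
Log2 level of Sox11, Neurod1, Igfbpl1 and Dcx (vertical axis) against the mean log2 level of 15 mature granule cell genes (horizontal axis), each as the difference from the mean of the 9 mice, with Ant-134 in red and Scr in grey. Sox11, Neurod1 and Igfbpl1 lie along a rising line from Scr replicate 3 at the lower left, with r from 0.85 to 0.90, and Dcx has an r of -0.40.

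The only relation of the 150 that passed adjustment was that of Neurod1 with the 5 mossy cell genes, with an r of 0.93 (exact permutation p = 0.000281, adjusted p = 0.0422), and its rho of 0.90 did not pass (exact permutation p = 0.00203, adjusted p = 0.0761). Its r was 0.96 without Ant-134 replicate 5 and Scr replicate 2. The mossy cell list holds Calb2, which had an r of 0.024 with the other 4 genes (adjusted exact permutation p = 0.984). Between Calb2 and Neurod1 the r was 0.26 (adjusted exact permutation p = 0.927). With the same list, Sox11 had an r of 0.89 and a rho of 0.83 (adjusted exact permutation p = 0.0685 and 0.177) and Igfbpl1 an r of 0.84 and a rho of 0.85 (adjusted exact permutation p = 0.0824 and 0.177). Among the other relations that did not pass was that of Tubb3 with the 8 interneuron genes (r = 0.88, adjusted exact permutation p = 0.0685; rho = 0.90, adjusted exact permutation p = 0.0761). With the 8 endothelial and mural cell genes Tubb3 had an r of -0.78 (adjusted exact permutation p = 0.168) and a rho of -0.90 (adjusted exact permutation p = 0.0761). Calb2 with the other 24 neuroblast and immature neuron genes had an r of 0.87 (adjusted exact permutation p = 0.0824) and a rho of 0.77 (adjusted exact permutation p = 0.247), and the r was 0.46 without Ant-134 replicates 3 and 5. Neither did Sox2 with the other 14 stem cell genes pass (r = 0.80, adjusted exact permutation p = 0.133; rho = 0.92, adjusted exact permutation p = 0.0761), nor Nes with them, at an r of 0.78 (adjusted exact permutation p = 0.168) and a rho of 0.80 (adjusted exact permutation p = 0.247). With the 8 endothelial and mural cell genes the r of Nes was 0.66, which did not pass (adjusted exact permutation p = 0.352) and its rho was 0.58 (adjusted exact permutation p = 0.600). Nes had larger r values with the 15 genes of dividing cells, at 0.72 (adjusted exact permutation p = 0.323; rho = 0.62, adjusted exact permutation p = 0.600), and with the 8 thalamus and habenula genes, at -0.73 (adjusted exact permutation p = 0.308; rho = -0.73, adjusted exact permutation p = 0.311). All 9 libraries share these relations' depth scaling, and the lists are not independent of each other.

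**Figure D5:**
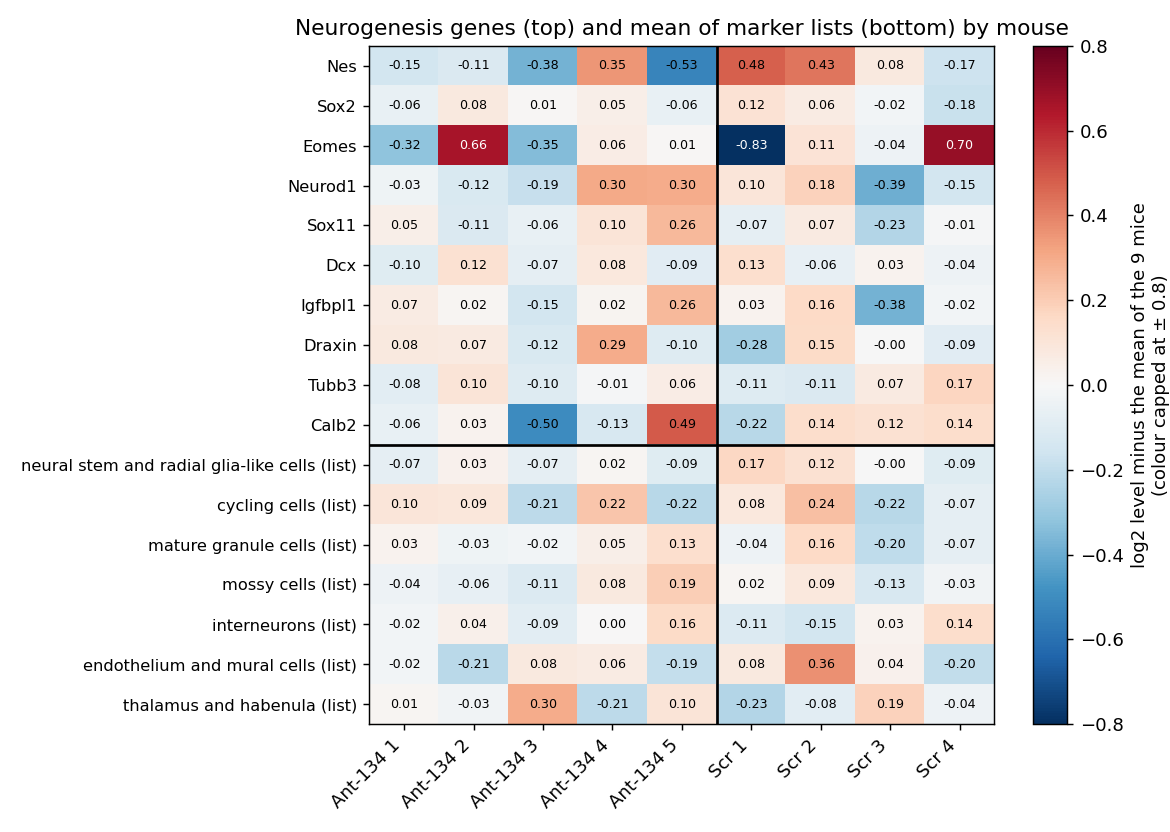
Difference of each gene (top) and of the mean of 7 marker lists (bottom) from the mean of the 9 mice, on the log2 scale, with a column for each mouse and red for higher. Sox11, Neurod1, Igfbpl1, the mature granule cell list and the mossy cell list are all lowest in Scr replicate 3, where Dcx is at 0.03.

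Across all tested genes, those whose levels followed Dcx most closely over the 9 mice were Slc25a42 (r = 0.93), Hus1 (r = 0.91), Ankrd61 (r = 0.90), Pak2 (r = 0.90) and Arhgap33 (r = 0.90). The genes that moved most against it were Mrps21 (r = -0.95), Eif6 (r = -0.93), Nhlh2 (r = -0.92), Selenom (r = -0.92) and Mrps16 (r = -0.91). Over 19782 genes and 9 mice, 3 genes had an r of at least 0.9 and 9 an r of at most -0.9, and these are given as a description with no test. The other 9 neurogenesis genes were left out of this ranking, and the highest r among them was the 0.62 of Sox2.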

How the data were processed

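Hippocampal RNA of 9 mice was sequenced from poly-A libraries, 1 mouse per library. Per the submitters' processing notes, the authors used HISAT2 2.0.5 and featureCounts 1.5.0-p3, and they deposited a raw count per gene and FPKM values, which are scaled to gene length and library total. The FPKM equalled the value computed from the counts times a constant per library of 0.978 to 1.007. The counts went into edgeR 4.0.16 (R 4.3.3; filterByExpr with a minimum count of 10, TMM scaling, robust quasi-likelihood test, no covariate), with Benjamini-Hochberg adjustment over 19782 genes. Standard errors were computed from the F statistic, and levels are CPM after TMM. Single genes were also compared by two-sided exact permutation tests over all assignments of mice to groups. Correlations used log2 CPM with a prior count of 2 and exact permutation over all orders of 9 mice. The script was tested on simulated data. No 2 libraries of a group were alike within counting noise (chi-square per gene at least 8.30). With 28583298 to 41978113 counts per library, intervals from counting cover counting error only.

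The 10 genes and the marker lists were chosen with earlier results of these data known. Named are the 10 genes, the 5 other tested genes with the highest and the 5 with the lowest r with Dcx, the most abundant gene of each dentate list, list genes past the unadjusted threshold, Bhlhe22, and Ube3a and Xist. The level of Ube3a cannot check the genotype here, because no wild-type mice are among the samples. Alternatives were unfiltered DESeq2 1.42.0, DESeq2 size factors, a filter of 10 counts in all samples, none at all, no robust estimation, a replicate block, covariates of Y-linked or mature granule cell genes, limma 3.58.1 on FPKM logged with a pseudocount of 1 or 0.1, which understates changes of low genes, and leaving out each library. Sites were searched in GENCODE M21 3′ UTRs (GRCm38), with the 8-base match alone or any annotated 3′ UTR as alternatives.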

Additional observations from a re-analysis of the deposited data

Results flagged for a closer look

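Of 50 groups of values compared for the 10 genes and the marker lists, 1 had a sample far from the others of its group, where chance gives about 1 in 20 groups. Calb2 was at 45.5 CPM in Scr replicate 1, whereas the other 3 Scr mice lay between 57.6 and 58.4 CPM. Without that mouse the groups would still overlap, since Ant-134 replicate 5 was at 74.6 CPM.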

How the results depend on the processing

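The group comparison has 5 and 4 mice, and Eomes and Draxin, at 13 to 44 and 100 to 182 counts, are limited by depth. The numbers do not pair the mice (correlations of same-numbered mice from -0.115 to 0.012). With a replicate block the log2 fold change of Dcx was -0.0049 and 0 of the 10 genes were called, beside 808 of all 19782 tested. Leaving out each mouse moved Dcx between -0.059 (without Ant-134 replicate 2) and 0.013 (without Scr replicate 1), Eomes between -0.22 and 0.26, Calb2 between -0.20 and 0.051, Igfbpl1 between -0.0068 and 0.16, Neurod1 between 0.016 (without Scr replicate 3) and 0.20 (without Scr replicate 2), Sox11 between 0.051 (without Ant-134 replicate 5) and 0.15 (without Scr replicate 2), Draxin between 0.025 (without Scr replicate 1) and 0.17 (without Scr replicate 2), Nes between -0.51 (without Ant-134 replicate 4) and -0.27 (without Scr replicate 1), Tubb3 between -0.055 and 0.044 and Sox2 between -0.048 and 0.043. With the mature granule cell covariate the values were 0.00016 for Dcx, -0.013 for Neurod1, 0.012 for Eomes, -0.0072 for Igfbpl1, 0.017 for Tubb3, -0.0019 for Sox2, 0.031 for Sox11, -0.13 for Calb2, -0.40 for Nes and 0.072 for Draxin. Eomes was also above 0 with the block (0.024), the Y-linked covariate (0.015) and limma on log2(FPKM + 0.1) (0.0061). Apart from Nes without Ant-134 replicate 4, none of these values passed the threshold, and the cause of the changes of sign was not tested. The number of the 10 genes called was 1, Nes, in DESeq2 without a filter (2.74% of all genes) and 0 in edgeR without a filter (4.74%). That number ranged from 0 to 1 when a mouse was left out, being 1 without Ant-134 replicate 4 (4.9% of all genes) or Scr replicate 4 (4.84%). Sox11, Nes and Draxin kept their direction under all 20 alternatives. Over all genes, 0 passed adjustment, 2 with the block, 14 and 16 without a filter in edgeR and DESeq2, and from 0 to 17 when a mouse was left out (17 without Ant-134 replicate 1). With group means subtracted, r with Dcx was 0.0040 for Neurod1 and 0.00078 for Eomes, and 0.21 for Eomes without the 2 farthest mice. The 2 genes with a miR-134 match were the same for the 8-base match alone and for any annotated 3′ UTR.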
